A study of Mus musculus with 21 samples.

Results

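Collagens are the extracellular matrix proteins in which chains wind into a triple helix. The genes described here are those with names of the form Col, a number, a and a number that the authors' deposited tables list, that the per-library values also hold, and that reached a value of 5 in at least 3 of the 21 libraries. Of 25127 genes in the per-library values, 43 have such names and 42 met the threshold. They comprise 11 fibrillar collagens, 6 basement membrane (type IV) chains, 6 beaded filament (type VI) chains, 9 fibril-associated collagens with interrupted triple helices (FACITs), 2 hexagonal network collagens, 2 multiplexins, 4 transmembrane collagens, and 2 others, Col7a1 and Col26a1. The gene just below the threshold was Col28a1, which passed 5 in 2 libraries, at 11.1 in P21 control 1 and at 5.62 in P21 cKO 4. The member closest to the threshold was Col4a3, which reached 5 in 16 libraries.

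Fibrillar collagens assemble into fibres, type IV chains form the sheet-like networks of basement membranes, and type VI chains form fine beaded filaments beside cells. FACITs sit on the surface of fibrils, while transmembrane collagens are anchored in the cell membrane. In the central nervous system, fibril-forming collagens are concentrated in the meninges and around larger vessels, and type IV collagen lies in the basement membranes of blood vessels and of the pial surface.

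Bulk RNA-seq was made from whole spinal cord of C57BL/6 mice in which Tardbp, the gene of the RNA-binding protein TDP-43, was deleted with Cre recombinase expressed from the Cnp promoter, which is active in oligodendrocytes and Schwann cells. The P21 cohort had 4 libraries in each of 3 genotypes, with 2 female and 2 male mice in each, all 21 days old. Controls carried Tardbp-fl/fl without Cre, cHET mice carried Cnp-Cre with Tardbp-fl/+, and cKO mice carried Cnp-Cre with Tardbp-fl/fl. The P60 cohort had 3 libraries per genotype. Its controls were female and 74 days old, its cHET mice were male and 60, 63 and 65 days old, and its cKO mice were male and 61, 61 and 64 days old. The comparison of cKO with cHET therefore holds Cre and, at P60, sex in common, and it is given first. At P60 genotype, sex and age cannot be told apart in comparisons with the control, and library kit and age cannot be told apart between P21 and P60. Each library came from 1 mouse.

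The deposited value of a gene is scaled reads per base, so levels of different genes can be set side by side within an age. The library sums of these values ran from 26908290 to 29206779 at P21 and from 12488935 to 13798772 at P60, and read depth is not given. Tardbp itself was lower in cKO cord, with 1639 to 1880 in the P21 cKO libraries against 2030 to 2236 in cHET (log2 change -0.29, limma adjusted p = 0.0025), and by 0.20 on the log2 scale at P60 (adjusted p = 0.040). All 10 markers fixed for spinal cord tissue, among them Mbp, Gfap and Snap25, were above 0 in every library. In bulk tissue, fewer cells of a type and less RNA per cell cannot be told apart.

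In P21 cKO cord 14 of the 42 collagen genes rose and 3 fell relative to cHET (limma adjusted p under 0.05, called below). Of all 17989 genes tested at this age, 22.6% were called in either direction, 12.6% higher and 9.97% lower. At P60 12 collagen genes rose and 0 fell relative to cHET, where 25.0% of 16833 genes were called, 13.4% higher and 11.5% lower. The median log2 change of the 42 genes was 0.18 at P21 and 0.37 at P60, against -0.01 and 0.00 for all genes tested. With quantile normalization the split was 12 higher and 5 lower at P21 and 11 higher and 3 lower at P60, and for all genes called the share that rose moved from 55.8% to 46.8% at P21 and from 53.8% to 46.1% at P60. Relative to the Cre-free control 13 collagen genes rose and 4 fell at P21 (26.9% of all genes called, 14.6% higher and 12.3% lower), and 12 rose and 2 fell at P60 (25.9%, 14.5% and 11.4%). In these control comparisons quantile normalization took the share of called genes that rose from 54.2% to 43.5% at P21 and from 55.8% to 45.3% at P60. The comparisons with cHET and with control share the cKO libraries. All cKO libraries lay above all cHET libraries for 13 collagen genes at P21 and 15 at P60 (12.7% and 20.6% of all genes), and below them for 4 and 5 (9.87% and 18.9%).

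Of the collagen genes called, 9 were higher in cKO against both cHET and control at both ages: Col4a5, Col4a6, Col5a1, Col5a3, Col9a3, Col12a1, Col16a1, Col20a1 and Col27a1. Another 17 members were called in none of the 6 genotype comparisons, including Col1a1, Col4a2 and Col5a2. The share of all genes that met either condition was not computed, so neither count can be called high or low. In single comparisons of cKO, 12.6% to 14.6% of all genes tested were higher.

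**Figure D1:**
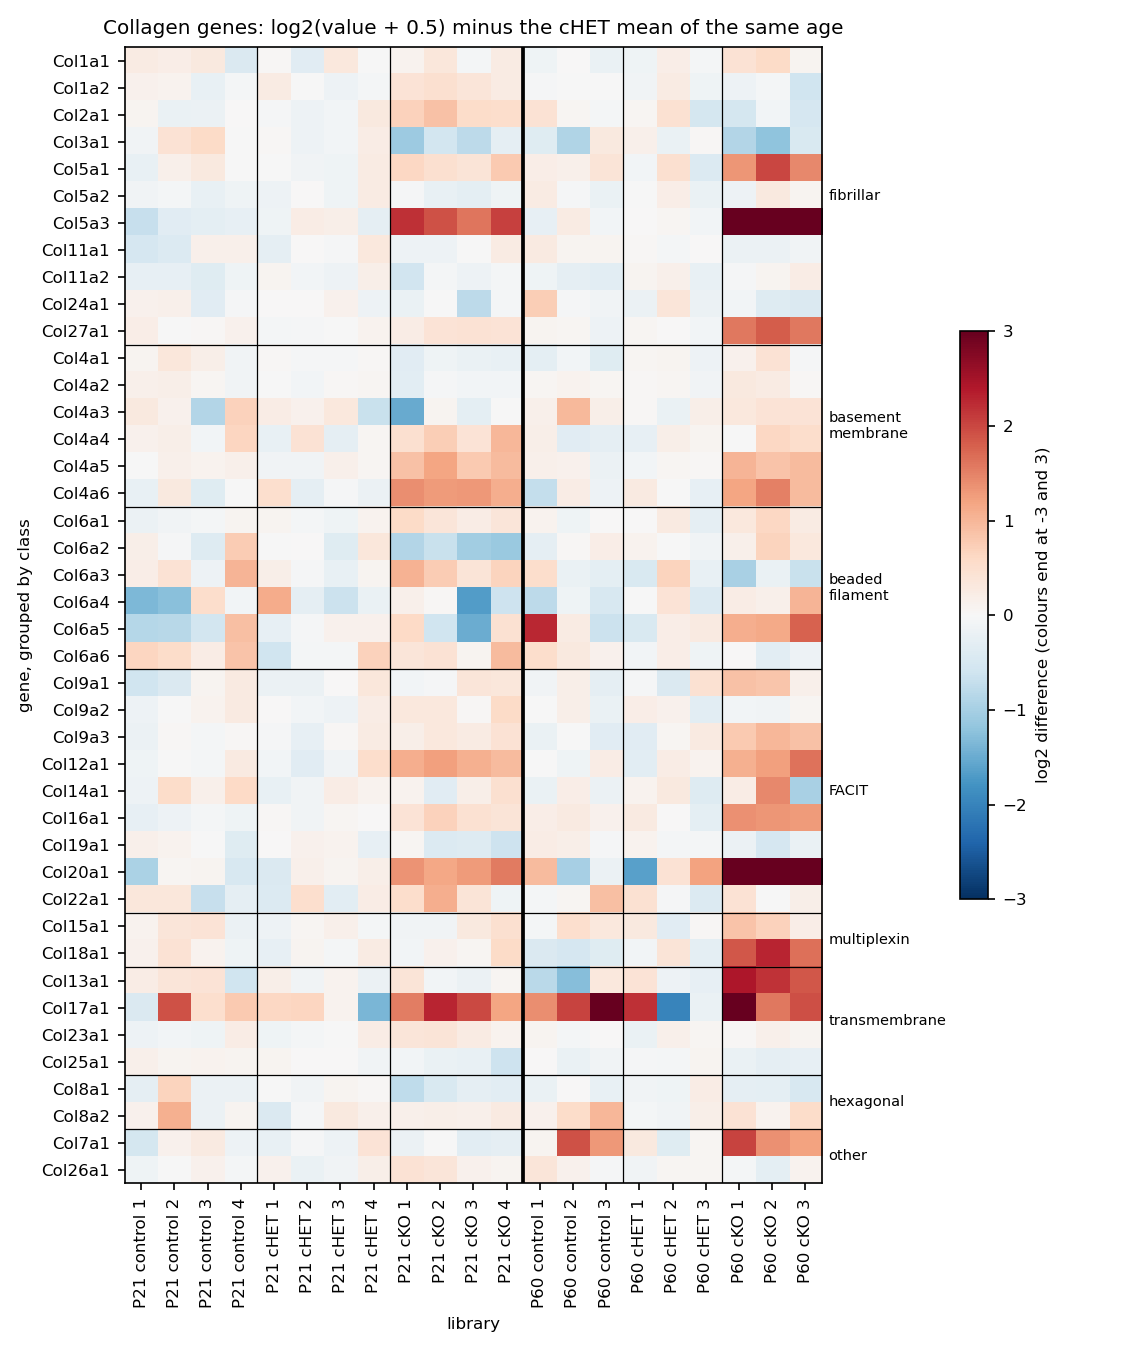
Each row is a collagen gene, grouped by class, and each column a library; colour gives log2(value + 0.5) minus the mean of the cHET libraries of the same age. Col5a3, Col20a1, Col4a5, Col4a6 and Col12a1 are red in all 7 cKO libraries, whereas Col18a1 and Col13a1 are strongly red in the 3 P60 cKO libraries only.

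The summed level of the 42 genes was 19662 ± 1213 in P21 control (SD, n = 4), 20331 ± 1502 in P21 cHET and 24560.0 ± 1134 in P21 cKO. At P60 the sums were 5208 ± 163 in control (SD, n = 3), 5287 ± 363 in cHET and 9656 ± 502 in cKO. At both ages every cKO library lay above every library of the other groups. At P21 this separation depends on the single gene Col5a3. P21 cKO 1 had a sum of 24083 with Col5a3 at 4049, and P21 cHET 4 had 22563 with Col5a3 at 733. Without Col5a3 the P21 sums of cKO and cHET overlap, so the P21 rise of the sum is no measure of a change across the 42 genes. The fibrillar share of the sum was 42.03% in control, 45.5% in cHET and 47.8% in cKO at P21, and 42.3%, 42.2% and 46.7% at P60. This share depends strongly on the single gene Col5a3, at 2680 to 4049 in P21 cKO against 733 to 1026 in cHET. At P60 it was at 1645 to 1871 against 150 to 168. The share is therefore no measure of a change across the fibrillar class. The basement membrane share was 8.44%, 7.64% and 8.69% at P21, and 7.92%, 7.97% and 6.47% at P60.

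Fibrillar collagens were the class with the highest levels. In control cord the most abundant member at P21 was Col11a2 (3465 ± 223, SD, n = 4), and Col11a1 ranked behind it and Col9a3 at 1610 ± 387. At P60 Col11a1 (615 ± 43.9, SD, n = 3) and Col11a2 (562 ± 35.6) ranked first and second. These genes encode chains of type XI collagen, a minor component that sets fibril diameter. Against cHET 5 of the 11 fibrillar genes rose and 1 fell at P21, and 3 rose and 0 fell at P60. The shares over all genes tested were 12.6% and 9.97% at P21, and 13.4% and 11.5% at P60.

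The fibrillar gene with the largest log2 change at both ages was Col5a3, which encodes a minor chain of type V collagen. Its values in P21 cKO were 4049, 3312, 2680 and 3654, against 813, 1026, 998 and 733 in cHET and 550, 696, 724 and 743 in control. The cKO libraries lay far above both other groups, which overlapped each other (log2 change against cHET 1.94 ± 0.14 SE, limma adjusted p = 1.4e-07). At P60 the cKO values were 1670, 1645 and 1871, against 162, 168 and 150 in cHET and 134, 189 and 150 in control. No cKO library came near the other 2 groups (log2 change 3.43 ± 0.12 SE, adjusted p = 2.5e-08, a 10.8-fold ratio of means). Col5a1, the chain common to the main forms of type V collagen, had P60 cKO values of 273, 442 and 298 against 103, 153 and 82.8 in cHET. The log2 change was 0.57 at P21 and 1.59 at P60, with adjusted p-values of 0.0045 and 0.00038. Col5a2, the chain that pairs with Col5a1, was not called at either age, with P21 means of 373 in cKO and 422 in cHET and P60 means of 101 and 96.0. The ratio of Col5a3 to Col5a1 within a library was 7.54 ± 0.88 (SD, n = 4) in P21 cKO and 2.98 ± 0.77 in cHET, and 5.37 ± 1.43 (SD, n = 3) against 1.49 ± 0.37 at P60. Ratios of 3 groups of libraries are descriptions here and were not tested.

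The other fibrillar gene higher at both ages was Col27a1, a developmental fibrillar collagen best known from cartilage. At P60 it was at 778, 907 and 772 in cKO against 269, 260 and 244 in cHET and 273, 267 and 231 in control. The P21 gap was much smaller, with 1024, 1163, 1169 and 1157 in cKO against 839, 852, 868 and 933 in cHET. The groups did not overlap at either age (log2 change 0.37 ± 0.07 SE, adjusted p = 0.0011 at P21, and 1.66 ± 0.09 SE, adjusted p = 4.1e-07 at P60).

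Promoter windows are not printed for every gene that rose at both ages. As examples, the windows of 250 bases before the annotated start of Col5a3 and Col27a1 are shown. They come from RefSeq on build GRCm38.p6, 5′ to 3′ on the gene's strand, with the GC box GGGCGG (on either strand) and the CCAAT box in capitals. Col5a3 lies on the minus strand (chr9:20815068-20815317) and Col27a1 on the plus strand (chr4:63215162-63215411).
Col5a3: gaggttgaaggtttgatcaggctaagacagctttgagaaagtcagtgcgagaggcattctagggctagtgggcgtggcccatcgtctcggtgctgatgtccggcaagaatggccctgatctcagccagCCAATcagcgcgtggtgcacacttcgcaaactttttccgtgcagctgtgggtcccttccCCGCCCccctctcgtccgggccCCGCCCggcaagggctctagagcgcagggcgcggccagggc
Col27a1: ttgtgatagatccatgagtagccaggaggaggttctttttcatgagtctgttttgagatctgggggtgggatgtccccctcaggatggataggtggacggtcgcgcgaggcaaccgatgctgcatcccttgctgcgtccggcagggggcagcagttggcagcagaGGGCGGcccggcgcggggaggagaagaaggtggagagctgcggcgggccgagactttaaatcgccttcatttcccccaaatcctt
The GC box occurred in 22 of 36 such windows of 33 matched collagen genes (61.1%) and in 32.7% of 32851 windows of all genes. The CCAAT box was in 36.1% and 33.8%, TATAAA in 11.1% and 12.4%, and TGANTCA, the letters of an AP-1 site, in 2.78% and 6.75%, all on both strands. A match is a description of the letters and no measure of factor binding. Only 18 of the 36 collagen windows were free of annotated exons. GC content was not compared between the collagen windows and those of all genes.

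The classical fibre genes behaved differently from Col5a3. Col1a2, which encodes the second chain of type I collagen, was at 811, 856, 788 and 726 in P21 cKO against 720, 602, 549 and 588 in cHET, and rose by 0.38 on the log2 scale (adjusted p = 0.012). At P60 its cKO values of 285, 303 and 209 overlapped the 291, 373 and 289 of cHET (log2 change -0.26, adjusted p = 0.22). Col1a1, the partner chain, was not called (log2 change 0.16 at P21 and 0.36 at P60), and its level was low: the ratio of Col1a1 to Col1a2 was 0.033 in P21 control and 0.044 in P60 cKO. Col3a1, the chain of type III collagen, fell at P21, with 30.2, 44.5, 37.2 and 54.1 in cKO against 66.2, 57.9, 61.0 and 75.8 in cHET (log2 change -0.67, adjusted p = 0.034). Without cHET 1, 3 or 4, or cKO 1, 2 or 3, the adjusted p was 0.071, 0.057, 0.085, 0.098, 0.051 and 0.074, while the log2 change stayed between -0.81 and -0.53. The call was also lost with no filter on low values (0.060) and in a fit of cKO and cHET alone (0.051). Against control Col3a1 fell by 0.90 on the log2 scale (adjusted p = 0.0058) without losing its call when any library was left out. At P60 its log2 change against cHET was -0.85 (adjusted p = 0.095). Col2a1, the main cartilage collagen, rose at P21 by 0.67 (adjusted p = 0.0064, or 0.056 with quantile normalization), and had a log2 change of -0.37 at P60 (adjusted p = 0.52). Its P60 values were all at or below 12.9.

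Type XI chains were called only against the P60 control. Col11a1 fell by 0.30 on the log2 scale (495, 489 and 516 in cKO against 665, 590 and 588, adjusted p = 0.010). Col11a2 had a log2 change of 0.32 (adjusted p = 0.044), and its call ended without control 2 or 3 (0.11 and 0.13), cHET 1 (0.054), or cKO 2 or 3 (0.093 and 0.14). It also ended with no filter (0.066), median-of-ratios scaling (0.054) or quantile normalization (0.057).

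**Figure D2:**
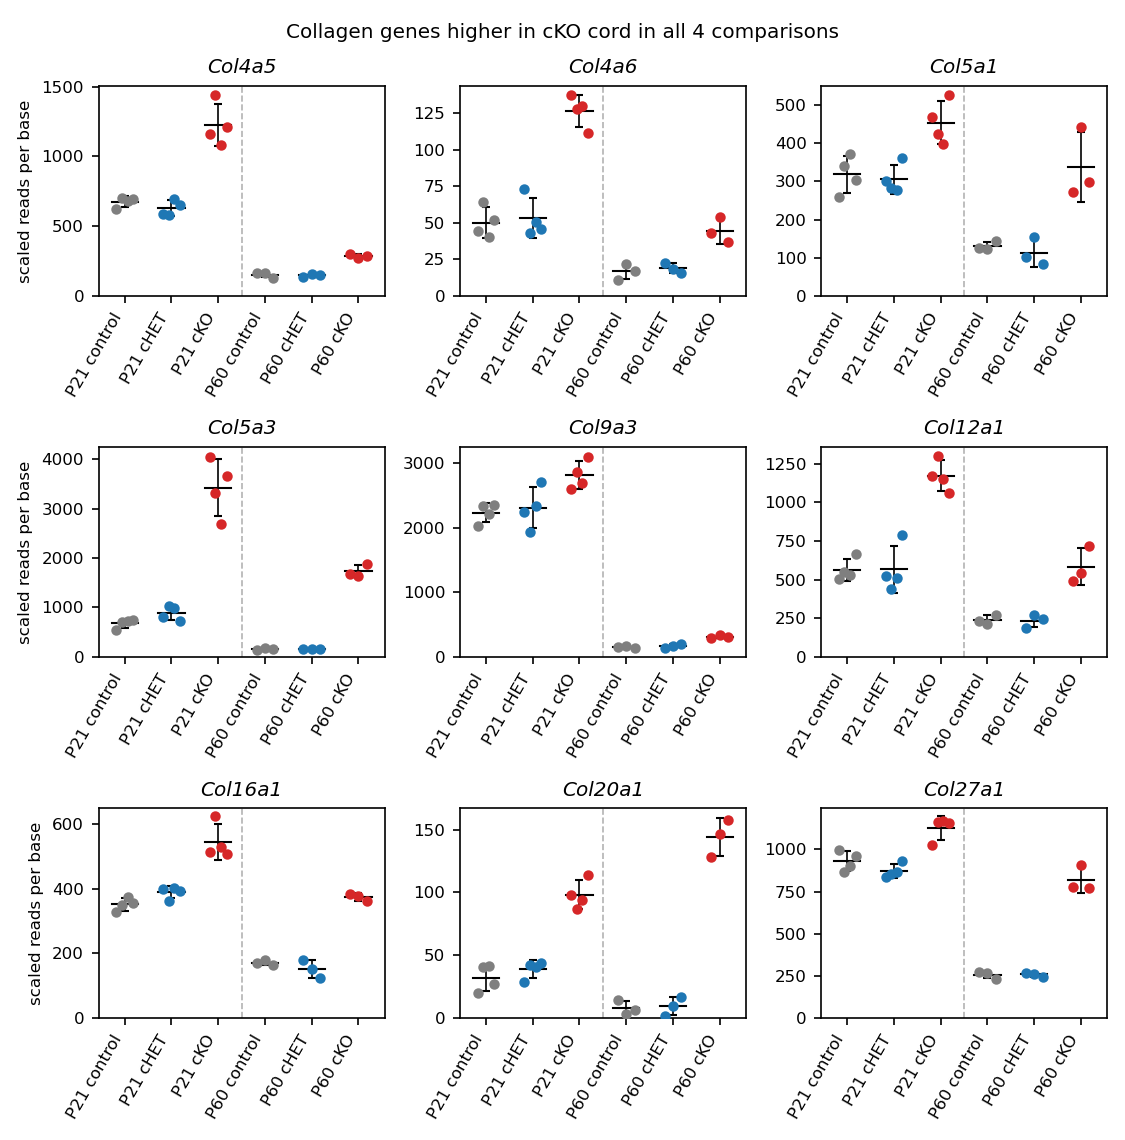
Scaled reads per base of the 9 genes that rose against both other genotypes at both ages; points are libraries, the line is the mean and the bar the SD (n = 4 at P21, n = 3 at P60). For Col5a1, Col5a3, Col4a5, Col4a6, Col12a1, Col16a1, Col20a1 and Col27a1 all cKO libraries lie above all other libraries of their age. P21 values of Col9a3 overlap between cKO and cHET.

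The type IV chains split by pair. Each of the 3 pairs of type IV genes is arranged head to head, and their chains combine into a small set of trimers. On chromosome X, Col4a5 and Col4a6, whose starts are 1309 bases apart, both rose at both ages. Col4a5 was at 1163, 1439, 1082 and 1212 in P21 cKO against 587, 583, 696 and 655 in cHET, and at 301, 269 and 286 against 139, 154 and 151 at P60. The increase was of equal size at both ages (log2 change 0.95 ± 0.09 SE, adjusted p = 2.3e-06, and 0.95 ± 0.11 SE, adjusted p = 8.8e-05). Col4a6 was at 137, 128, 130 and 112 in P21 cKO and at 73.5, 43.2, 50.8 and 45.7 in cHET, with P60 values of 42.9, 54.1 and 36.9 against 22.6, 18.6 and 15.6 (log2 change 1.27 and 1.21, adjusted p = 0.00024 and 0.0092). The gene pair of the major, ubiquitous basement membrane chains, Col4a1 and Col4a2, was not called higher in any comparison. Col4a1 values spanned 236 to 272 (P21 cKO), 292 to 308 (cHET) and 279 to 383 (control), and it fell against control by 0.36 on the log2 scale (adjusted p = 0.014, or 0.053 without control 2). Against cHET its groups did not overlap, but the log2 change of -0.23 was not called (adjusted p = 0.11). At P60 Col4a1 was at 122, 152 and 110 in cKO and 91.8, 105 and 87.5 in control, without overlap. That log2 change of 0.42 missed the threshold (adjusted p = 0.051), but passed it without cKO 3, among genes with a mean of at least 50, and in the authors' deposited table (q = 0.048). Col4a2 was not called in any comparison, with log2 changes against cHET of -0.14 and 0.19. Its log2 change of -0.21 against the P21 control (adjusted p = 0.081) passed with quantile normalization, without control 4, and in the authors' deposited table (q = 0.046). Col4a3 and Col4a4, the third pair, were low, at 3.40 to 31.8 and 10.9 to 50.2, and were not called. The ratio of Col4a5 to Col4a1 was 4.77 ± 0.47 in P21 cKO (SD, n = 4) and 2.10 ± 0.21 in cHET, and 2.28 ± 0.45 (SD, n = 3) against 1.33 ± 0.15 at P60.

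The windows before the starts of the X-linked pair are printed as further examples, with the same capitals. Col4a6 is on the minus strand (chrX:141474077-141474326) and Col4a5 on the plus strand (chrX:141475169-141475384), and the latter is cut to the bases before the annotated exon. The cut part of the Col4a5 window held a GC box, 30 to 25 bases before the RefSeq start. That box is not printed but is counted above.
Col4a6: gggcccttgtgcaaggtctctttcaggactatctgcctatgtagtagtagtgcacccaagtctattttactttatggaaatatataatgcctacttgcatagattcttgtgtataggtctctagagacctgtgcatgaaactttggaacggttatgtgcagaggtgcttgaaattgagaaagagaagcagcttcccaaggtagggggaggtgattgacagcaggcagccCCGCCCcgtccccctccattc
Col4a5: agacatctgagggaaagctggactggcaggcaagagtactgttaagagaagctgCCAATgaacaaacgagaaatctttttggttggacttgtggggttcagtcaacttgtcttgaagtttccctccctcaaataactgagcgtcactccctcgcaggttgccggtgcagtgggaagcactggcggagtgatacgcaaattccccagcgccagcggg

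Among type VI chains Col6a1 and Col6a2, which are separated by 85162 bases on chromosome 10 and whose products assemble with Col6a3 in one molecule, moved in opposite directions at P21. Col6a2 was at 718, 828, 639 and 608 in cKO against 1309, 1328, 1025 and 1668 in cHET and 1481, 1272, 1007 and 2215 in control. Every cKO library was below every other library (log2 change against cHET -0.92 ± 0.20 SE, adjusted p = 0.0037). Col6a1 was at 941, 818, 746 and 817 in cKO against 676, 610, 582 and 685 in cHET, again without overlap (log2 change 0.38 ± 0.08 SE, adjusted p = 0.0048). The ratio of Col6a2 to Col6a1 was 0.844 ± 0.123 in P21 cKO (SD, n = 4), 2.08 ± 0.29 in cHET and 2.43 ± 0.71 in control, whereas at P60 it was 0.848 ± 0.079 (SD, n = 3), 0.867 ± 0.132 and 0.865 ± 0.174. At P60 Col6a1 and Col6a2 were not called, with log2 changes of 0.40 and 0.37 (adjusted p = 0.066 and 0.10). Without P60 cHET 2 Col6a1 passed (log2 change 0.53, adjusted p = 0.023). Col6a3 had a log2 change against cHET of 0.72 at P21 (adjusted p = 0.026) that was lost without cHET 2 or 3 (0.056 and 0.075), without cKO 1 or 2 (0.079 and 0.061) or with quantile normalization (0.095), and of -0.61 at P60 (adjusted p = 0.20). The P60 cHET values of Col6a3 were 65.9, 144 and 76.7, and without cHET 2, the high one, the log2 change was -0.27 (adjusted p = 0.58). Col6a4, Col6a5 and Col6a6, alternative chains in a cluster on chromosome 9, were called in none of the comparisons.

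**Figure D3:**
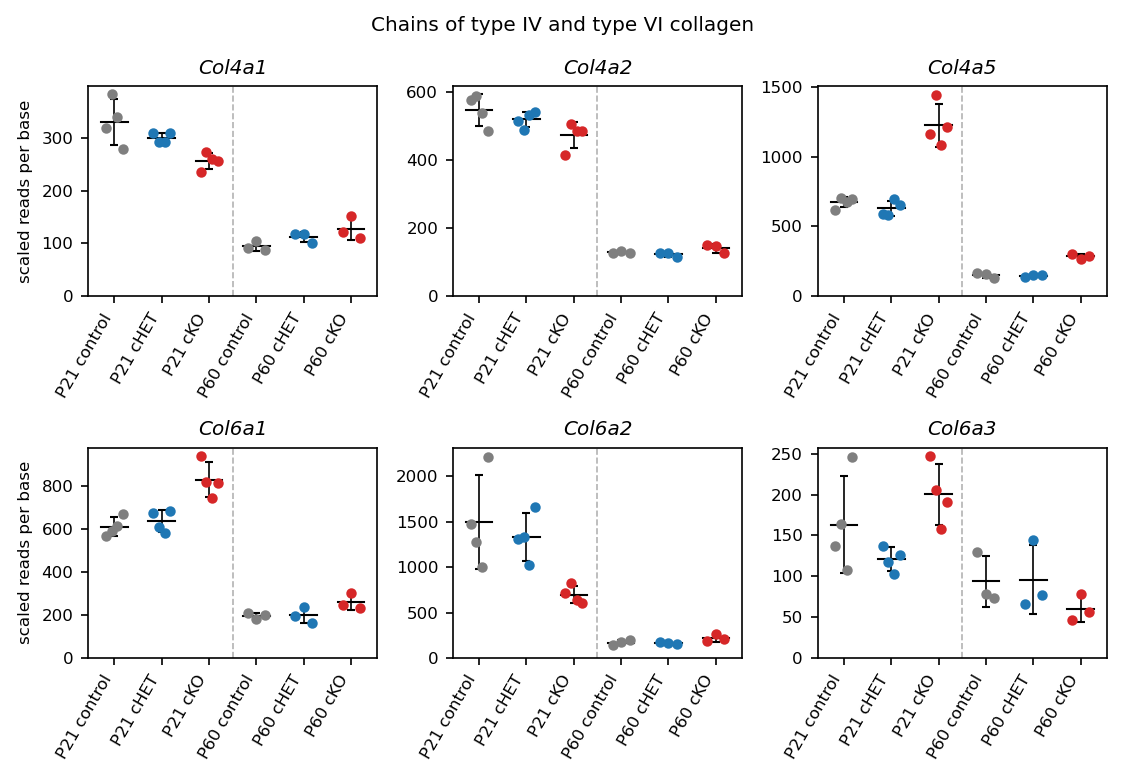
Scaled reads per base of 3 type IV and 3 type VI chains; points are libraries, lines means and bars SD (n = 4 at P21, n = 3 at P60). At P21 Col6a2 is lower and Col6a1 higher in cKO than in the other groups, and Col4a5 rises without Col4a1 or Col4a2.

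Of the 9 FACIT genes 4 rose and 0 fell against cHET at each age, and these were the same 4 genes. Among all genes tested 12.6% rose at P21 and 13.4% at P60. Col12a1, which binds to type I fibrils, was at 1174, 1303, 1150 and 1063 in P21 cKO against 525, 438, 513 and 791 in cHET, and at 488, 542 and 718 against 186, 269 and 247 at P60. The increase exceeded the spread at both ages (log2 change 1.08 and 1.31, adjusted p = 8.4e-05 and 0.00019). Col16a1, found with fibrils and beside basement membranes, was at 384, 376 and 362 in P60 cKO against 179, 151 and 123 in cHET (log2 change 1.32 ± 0.12 SE, adjusted p = 1.8e-05), with a smaller rise of 0.48 at P21 (adjusted p = 0.00066). Col20a1 was at 128, 147 and 158 in P60 cKO against 1.92, 9.63 and 17.0 in cHET and 13.9, 3.30 and 6.17 in control. The cHET and control values are near the low end of the scale, so its log2 change of 4.26 ± 0.66 SE (adjusted p = 0.00069) has a wide error. At P21 its values were 87.1 to 114 in cKO and 28.5 to 43.8 in cHET (log2 change 1.34, adjusted p = 0.00093). The per-library values of Col20a1 lie below the mean in the authors' deposited table (-2.72 natural log units at P21 and -2.65 at P60). Its low level is therefore not common to both kinds of file. The authors' deposited table gives log2 changes of 1.59 at P21 and 5.03 at P60. Col9a3, a chain of type IX collagen, had log2 changes of 0.29 and 0.89, with adjusted p-values of 0.031 at P21 and 0.0013 at P60. Its P21 call against cHET ended without cHET 1, 2 or 3 (0.070, 0.096 and 0.056), without cKO 2 or 4 (0.073 and 0.078), with no filter (0.052) and in a fit of the 2 groups alone (0.059). The 2 other type IX genes, Col9a1 and Col9a2, were not called, and the ratio of Col9a3 to Col9a2 was 9.01 ± 1.04 in P21 cKO (SD, n = 4) against 9.12 ± 0.90 in cHET, and 8.01 ± 0.84 (SD, n = 3) against 4.42 ± 1.78 at P60. Col9a3 overlaps Tcfl5 by 234 bases on the opposite strand. Col14a1, whose per-library values also differ from the authors' mean, had a log2 change of -0.17 against the P21 control (adjusted p = 0.58), and of -0.52 in the authors' deposited table (q = 0.029). Col19a1 fell against the P60 control (145, 114 and 143 against 189, 185 and 158, log2 change -0.41, adjusted p = 0.031), a call lost without control 1 or 2 (0.094 and 0.096) or cKO 2 (0.11).

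The multiplexin Col18a1, the source of endostatin in vascular and epithelial basement membranes, rose at P60. Its cKO values were 1146, 1538 and 995, against 298, 409 and 256 in cHET and 235, 221 and 244 in control. All 3 cKO libraries lay above all others (log2 change 1.94 ± 0.18 SE, adjusted p = 1.5e-05). At P21 the groups overlapped, with 575 to 911 in cKO and 511 to 718 in cHET (log2 change 0.17, adjusted p = 0.47). The other multiplexin, Col15a1, was not called.

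Transmembrane Col13a1, a collagen of cell adhesion sites and the neuromuscular junction, followed the same pattern at a lower level. At P60 it was at 79.8, 66.6 and 53.8 in cKO, 19.3, 12.96 and 12.2 in cHET and 8.09, 5.69 and 18.1 in control (log2 change 2.14 ± 0.38 SE, adjusted p = 0.0018). At P21 its values were 32.1 to 47.5 in cKO and 31.9 to 40.8 in cHET (log2 change 0.05, adjusted p = 0.91). Col25a1, a membrane collagen of neurons, had P21 values of 909, 841, 827 and 628 in cKO, 1014, 977, 973 and 888 in cHET and 1071, 1013, 1039 and 1020 in control. It fell against control by 0.38 on the log2 scale (adjusted p = 0.0077), without overlap. Against cHET its log2 change was -0.28 (adjusted p = 0.049), a call lost without control 1, 2, 3 or 4 (0.061, 0.063, 0.064 and 0.062), cHET 1, 2 or 3 (0.12, 0.10 and 0.10) or cKO 2, 3 or 4 (0.061, 0.061 and 0.081). It was also lost with a pseudocount of 0.05 (0.0503), no filter (0.072), median-of-ratios scaling (0.064) or a fit of the 2 groups alone (0.11). At P60 it was at 323, 307 and 313 against 361, 356 and 393 in cHET (log2 change -0.24, adjusted p = 0.052, q = 0.040 in the authors' deposited table). Col23a1 had a log2 change of 0.28 against cHET at P21 (adjusted p = 0.054, q = 0.041 in the authors' deposited table) and of 0.32 against the P21 control (adjusted p = 0.026), lost without control 1, 2 or 3 (0.080, 0.068 and 0.075) or cKO 1 or 2 (0.066 and 0.078). Col17a1, a hemidesmosome collagen, lay between 0 and 36.9 in all libraries, and its P21 log2 change of 1.74 against cHET (adjusted p = 0.029) was lost without cHET 3 or 4 (0.054 and 0.074), cKO 2 or 3 (0.086 and 0.065), or with no filter (0.055).

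Of the remaining classes, the hexagonal network genes Col8a1 and Col8a2 were not called. Col7a1, the anchoring fibril collagen, was at 24.0, 15.0 and 13.3 in P60 cKO and 6.88, 4.16 and 5.72 in cHET, but at 5.87, 21.9 and 14.3 in control. Its log2 change against cHET was 1.54 (adjusted p = 0.034), lost without cHET 1, 2 or 3 (0.053, 0.10 and 0.063) or cKO 1 or 2 (0.12 and 0.068), with no filter (0.057) and with quantile normalization (0.055). The per-library values of Col7a1 lie below the mean in the authors' deposited table (-0.70 natural log units at P21 and -0.58 at P60). Without P60 cHET 2, Col7a1 was the only collagen gene of the 12 called against cHET at P60 to lose its call, and Col6a1 was the only collagen gene to gain one.

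**Figure D4:**
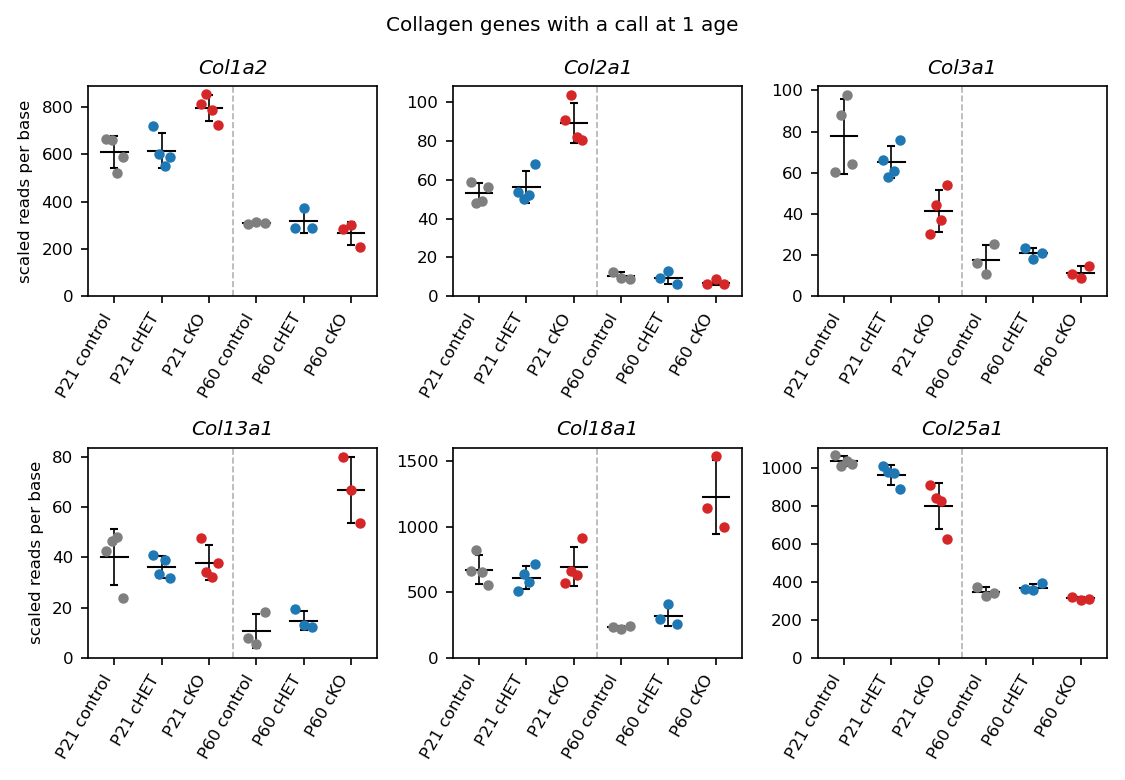
Scaled reads per base of 6 collagen genes called at 1 age; points are libraries, lines means and bars SD (n = 4 at P21, n = 3 at P60). Col18a1 and Col13a1 are raised in the 3 P60 cKO libraries, Col1a2 and Col2a1 in the 4 P21 cKO libraries, and Col3a1 and Col25a1 are lower in P21 cKO.

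Whether the cKO change differed between the ages was tested as an interaction. For cKO against cHET 9 of the 42 collagen genes passed, 8 with a more positive change at P60 and 1 with a less positive one, where 3.2% of 16570 genes passed (1.49% more positive and 1.71% less positive). The largest relative to its error was Col27a1 (difference of log2 changes 1.29 ± 0.11 SE, adjusted p = 4.1e-07). Col18a1 differed by 1.76, Col13a1 by 2.09, Col5a3 by 1.49, Col16a1 by 0.84, Col20a1 by 2.92 and Col6a2 by 1.29, each keeping its call when any 1 library was left out. For Col5a1 the difference of 1.02 (adjusted p = 0.033) was lost without P21 cHET 1 or 4 (0.052 and 0.065), P21 cKO 2 or 3 (0.062 and 0.060), P60 cHET 1 or 3 (0.083 and 0.077) or P60 cKO 2 (0.10). Col1a2 had the negative difference, -0.64 (adjusted p = 0.0498), and kept its call only without P21 control 3, P21 cHET 1, P21 cKO 4, P60 cHET 3 or P60 cKO 2. Without any of the other 16 libraries the call was lost, with an adjusted p of up to 0.16 (P60 cHET 2), as it was with a pseudocount of 0.05 (0.0507) or no filter (0.069). Col4a5, with a difference of -0.01 ± 0.14 SE, and Col4a6, at -0.06 ± 0.33 SE, were not called. For cKO against control 8 collagen genes had a more positive and 2 a less positive change at P60 (4.48% of all genes passed, 2.35% more positive and 2.13% less positive). Kit, age and cohort cannot be told apart in these differences. In those against control, genotype also cannot be told apart from sex and animal age at P60.

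**Figure D5:**
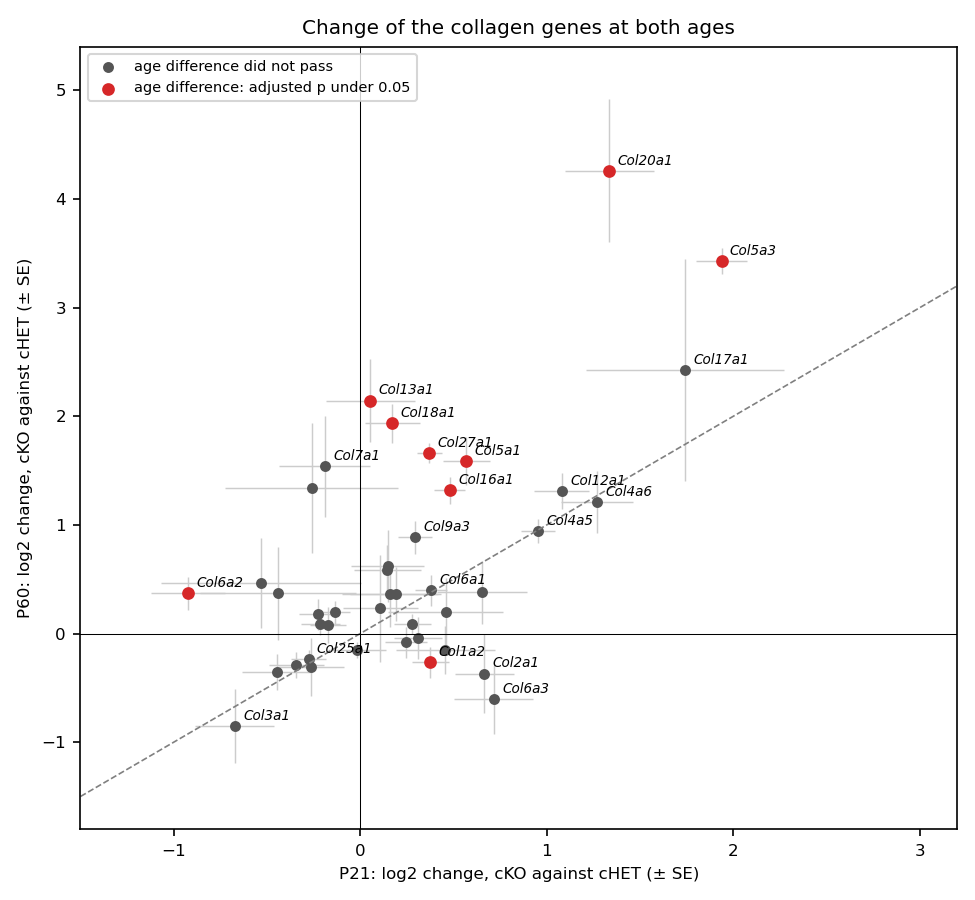
Log2 change of cKO against cHET at P21 (horizontal) and P60 (vertical) for the 42 collagen genes, with SE bars; named genes were called at 1 age or both, red points passed the test of the age difference and the dashed line marks equal changes. Col4a5 lies on the dashed line at 0.95 on both axes, whereas Col18a1, Col13a1 and Col27a1 lie far above it.

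Between cHET and control no collagen gene was called by limma at P21, where 0.0111% of all genes were, or at P60, where 0.0178% were. At an unadjusted p under 0.05 there were 2 of 42 collagen genes at P21 and 5 at P60, where 7.14% and 5.42% of all genes were. In the authors' deposited tables the lowest q of a collagen gene was 0.612 at P21 and 0.99991 at P60. The largest log2 changes that were not called were those of Col17a1, -0.70 at P21 and -2.41 at P60.

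Genes that process collagen were examined as lists, each against cHET. Of all genes tested, 12.6% rose and 9.97% fell at P21, and 13.4% rose and 11.5% fell at P60. Their median log2 change was -0.01 and 0.00. No list was tested as a whole. Bmp1, Lama1 and Thbs2 are on these lists but were not analysed here. Of 19 genes for collagen folding and modification 10 rose and 2 fell in P21 cKO against cHET, and 9 rose and 2 fell at P60 (median log2 change 0.22 and 0.39). P4ha3, a prolyl 4-hydroxylase subunit, went from 565 ± 51.9 to 1445 ± 221 at P21 (SD, n = 4), a log2 change of 1.35 (adjusted p = 1.2e-06). The collagen galactosyltransferases moved in opposite directions at P21, Colgalt1 by 0.52 and Colgalt2 by -0.56. Of 11 genes for propeptide cleavage and cross-linking 3 rose and 1 fell at P21, and 4 rose and 2 fell at P60. The cross-linking oxidases Loxl2 and Lox had log2 changes of 1.90 and 1.71 at P21, Adamts2, which removes the N-propeptide, fell by 0.92 on the log2 scale at P21 and by 1.21 at P60, and Pcolce2, an enhancer of C-propeptide cleavage, fell by 2.24 at P60.

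Of 11 collagen receptors 4 rose and 0 fell at each age, where 22.6% of all genes were called at P21 and 25.0% at P60. Lair1, an inhibitory immune receptor for collagen, had a log2 change of 1.66 at P21 and 1.68 at P60, and Itgb1, the beta subunit of the collagen-binding integrins, of 0.44 and 1.02. Mrc2, an endocytic collagen receptor, had one of 1.01 at P21. Of the collagen-degrading proteases and their inhibitors 5 of 12 tested rose and 1 fell at P21, and 8 of 13 rose and 1 fell at P60. Timp1, a metalloproteinase inhibitor, had log2 changes of 3.29 and 2.97, and Mmp12, the macrophage elastase, of 3.41 and 2.01, while Mmp2, a gelatinase, rose by 0.98 at P21.

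Of 15 basement membrane partners 4 rose and 1 fell at P21, and 6 rose and 1 fell at P60. All genes called made up 22.6% and 25.0% of those tested. The nidogens, which link laminin to type IV collagen, diverged at P21: Nid1 went from 4174 ± 454 to 1254 ± 95.0 (SD, n = 4, log2 change -1.73, adjusted p = 3.3e-09) and Nid2 from 332 ± 76.7 to 643 ± 172 (log2 change 0.94). Sparc, a collagen-binding matricellular protein, rose by 0.33 and 0.70, and Hspg2, the gene of perlecan, by 1.57 at P60. Of 16 fibril-associated proteoglycans and glycoproteins 9 rose and 1 fell at P21, and 8 rose and 1 fell at P60. Fmod, which encodes fibromodulin, had log2 changes of 3.61 and 3.49, from 205 ± 32.5 to 2548 ± 603 at P21. Postn and Prelp rose by 2.30 and 1.11 at P21, and Tnxb by 2.10 at P60. Of 13 TGF-beta ligands and receptors, upstream inducers of many collagen genes, 8 rose and 0 fell at P21, and 5 rose and 2 fell at P60. Tgfb1 had a log2 change of 1.66 at P21, Tgfbr2 of 1.49 and 1.41, and Tgfbr1 of 1.04 and 1.51.

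Markers of cell types that make collagen were compared in the same libraries. Among all genes tested, 12.6% rose and 9.97% fell at P21, and 13.4% rose and 11.5% fell at P60. Of 13 fibroblast markers tested at P21 0 rose and 1 fell in cKO against cHET, and of 12 at P60 0 rose and 0 fell. The summed level of the fibroblast list spanned 1530 to 2380 for P21 cKO, 1452 to 2035 for cHET and 1184 to 1530 for control, with 514 to 637, 517 to 716 and 497 to 655 at P60. In that list Slc22a6 was at 0 in 7 libraries, Dpep1 in 3 and Crabp2 in 1. Dcn, a defining fibroblast gene, was at 134 to 162 in P60 cKO and 174 to 252 in cHET. It was not called, it was picked after its values were seen, and it does not stand for the list. Of 10 endothelial markers 0 rose and 2 fell at P21 and 0 rose and 1 fell at P60, and the mural list had 2 up and 2 down at each age. Schwann cell markers had 5 of 10 up and 1 down at P21 and 4 up and 1 down at P60, and cartilage and bone markers 3 of 9 up and 1 down at P21 and 2 of 7 up at P60.

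The microglia and oligodendrocyte precursor lists had higher summed levels in cKO than in cHET at both ages. Among all genes tested, 12.6% were called higher at P21 and 13.4% at P60. The summed level of 9 microglia markers was 31157 to 44109 in P21 cKO against 9018 to 10256 in cHET, and 16176 to 21427 against 4572 to 4831 at P60, with 7 of 9 higher at each age. That of 6 oligodendrocyte precursor markers was 13623 to 15316 against 9181 to 9749, and 4819 to 5490 against 2462 to 2678, with 5 and 6 of 6 higher. None of these 15 genes was at 0 in any library. Their part in the collagen results was not tested.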

How the data were processed

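RNA of whole spinal cord was sequenced in 21 libraries. The labels name the Illumina TruSeq kit for P21 and a directional NEXTflex kit for P60. The deposited signal is, for every gene, scaled reads per base as normalized by the authors, made with kallisto 0.43.0 and sleuth 0.28.1 on GRCm38 per the submitters' processing notes. The authors' deposited tables give each effect as a natural log of value + 0.5, plus its p-value and q-value. Effects were divided by the natural log of 2. For 37 members both kinds of file gave the same P21 mean (within 1e-06). Col2a1, Col7a1, Col14a1, Col20a1 and Col22a1 differed.

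Values were analysed as log2(value + 0.5) with limma 3.58.1 (limma-trend) in R 4.3.3. Genes with a value of 5 or more in 4 P21 libraries, or in 3 P60 libraries, were tested, and all 42 members passed at both ages. Each age had 1 fit of its 3 genotypes, with p-values adjusted over all tested genes by Benjamini and Hochberg, with a threshold of 0.05, 2-sided. Age differences are interactions in a fit of all 6 groups. Standard errors (SE) are moderated. The rule for naming genes took members called in any comparison, the 3 most abundant of each class, the called list genes with the smallest p, and Tardbp. Other genes named, such as Col1a1, Col4a3, Col4a4, Col5a2, Col6a4, Col6a5, Col6a6, Col9a1, Col9a2, Dcn and the markers at 0, were chosen after their values were seen. Members and gene lists were chosen with earlier results of these data known. Alternatives were 2 other pseudocounts, filters, scalings, a 2-group fit, robust moderation, sex as a covariate, the authors' tables and leaving out each library. One more, using only members equal in both kinds of file, was chosen after seeing the data. The level of 1 marker gene, in which P60 cHET 2 stood apart from the other P60 libraries, is not reported here.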

Additional observations from a re-analysis of the deposited data

Results flagged for a closer look

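The change in cKO differed between P21 and P60 for several collagen genes by the interaction test in limma. Against cHET the differences of log2 changes (P60 minus P21) were 1.76 for Col18a1, 1.49 for Col5a3, 2.92 for Col20a1, 1.29 for Col6a2, 1.02 for Col5a1, -0.64 for Col1a2, 0.84 for Col16a1, 1.29 for Col27a1 and 2.09 for Col13a1. Against control they were 2.33 for Col18a1, 1.14 for Col5a3, 2.68 for Col20a1, 1.43 for Col6a2, -1.26 for Col2a1, 0.74 for Col9a3, -0.63 for Col1a2, 0.78 for Col4a1, 1.39 for Col27a1 and 2.78 for Col13a1. Both sets share the cKO libraries, and kit and age cannot be told apart. In the set against control, genotype also cannot be told apart from sex and animal age at P60.

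In 7 of 126 groups of 4 P21 libraries, 1 library lay far from the other 3 by Dixon's criterion, of which chance gives about 1 in 20. These were Col1a1 at 13.7, Col6a5 at 51.1 and Col23a1 at 1138 in control 4, Col8a1 at 234 in control 2, Col6a4 at 39.1 in cHET 1, Col8a2 at 61.3 in cKO 4 and Col27a1 at 1024 in cKO 1.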

How the results depend on the processing

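Of 79 collagen gene results that passed the threshold, 63 kept their direction and call under every alternative run, 16 lost the call under at least 1 and 0 reversed. Leaving out 1 library at a time, the number of collagen genes called against cHET ranged from 12 to 17 (P21) and 11 to 14 (P60), and against control from 15 to 20 and 12 to 15. For the age difference it was 7 to 10 against cHET and 7 to 12 against control. With only the members equal in both kinds of file it was 15 (P21) and 10 (P60) against cHET, and 15 and 13 against control. For cHET against control, 2 genes of all tested were called at P21 and 3 at P60. The P21 count was 1 without the filter, with quantile normalization or with sex as a covariate, 35 in the authors' deposited table, and 1 to 26 when a library was left out (26 without cHET 4). The P60 count was 14 in the authors' deposited table and 1 to 4 when a library was left out. With 0.5 added to each value, the ratio of Col1a1 to Col1a2 was 0.0299 in P60 cHET and 0.0462 in P60 cKO. The cause of these shifts was not tested.

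The Col20a1 age difference against control (2.68) was lost without P21 control 2 or 3 (adjusted p = 0.054 for both), P60 control 2 or 3 (0.089 and 0.058) or P60 cKO 2 or 3 (0.056 for both). The Col2a1 difference was lost without P21 control 2, P21 cKO 2, P60 control 1, or P60 cKO 1 or 3 (0.052, 0.054, 0.066, 0.065 and 0.059), and that of Col1a2 without any of 10 libraries (up to 0.13). Read depth is unknown, so no counting error could be given for low genes such as Col17a1. No paired analysis was possible because the labels carry no replicate numbers that groups share.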
